A study of Homo sapiens with 6 samples.

Results

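The genes described here encode the proteins of the cytosolic ribosome, chosen from the gene count table by symbol. A gene was a member if its symbol was RPL or RPS followed by a number with at most one of the suffixes A, X, L, AL or L1, or was RPSA, RPLP0, RPLP1 or RPLP2, and if it passed the filter on low counts, filterByExpr of edgeR. Of 83 genes with such a symbol, 80 passed this filter, among 13548 genes kept of 35106 in the table. They were 44 genes of the large subunit, 31 genes of the small subunit and 5 paralogs. RPL10L, RPL39L and RPL3L, whose counts did not exceed 5 in any library, were not kept. RPL6 and RPL7A were not analysed here.

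The ribosome translates messenger RNA with a small subunit, which decodes the message, and a large subunit, which joins the amino acids. Each subunit is a core of ribosomal RNA dressed with proteins that are, with few exceptions, needed in equal copy number, so their genes are expressed together. In human cells these messages carry a pyrimidine tract at the 5′ end, the terminal oligopyrimidine (TOP) motif, through which mTOR and LARP1 regulate their translation and stability.

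The study compared HCT116 cells, an established human colorectal carcinoma line, without and with shikonin, a red naphthoquinone extracted from gromwell roots. There were 3 libraries labelled control (genotype WT, treatment none) and 3 labelled shikonin (genotype WT), and the labels give 8 μM for 24 h, whereas the methods of the study name a lower dose for the same time. No source says that replicate libraries are separate cultures, and the p-values therefore cover no more than the spread among the 6 libraries. In such bulk samples, fewer cells of a type and less RNA per cell cannot be told apart, and every direction below follows the sample labels.

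The libraries held 18845690 to 21765806 estimated counts, and 58.5% to 63.3% of all nonzero values carried a fraction in 5 of them, against 46.5% in control 3. Mitochondrially encoded genes took 4.27% to 6.99% of the counts. Of the colorectal epithelial markers, EPCAM had 4941 to 5943 counts per library, and CDH1, KRT8, KRT18, KRT19 and CDX2 were present. VIL1 was at 0 in every library and CEACAM5 had at most 3 counts. Of 12 markers of other cell types, 4 had enough counts to be tested. These were COL1A1, a collagen of fibroblasts, with 482 to 707 counts per library, ACTA2, an actin of smooth muscle, with 85 to 95 counts, VWF, of endothelium, with 10 to 35 counts, and CD68. The other 8 had at most 6 counts in a library, with CD3E and DCN at 0 in all. CD68, a lysosomal protein of macrophages, was called higher with shikonin (log2 fold change 0.63). The part of these markers in the results was not tested.

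The messages of the ribosomal proteins were higher in the libraries labelled shikonin. In the fit of all 6 libraries the amount was small and similar for most members. By edgeR's quasi-likelihood test with Benjamini-Hochberg adjustment over all genes, 57 of 80 members rose at an adjusted p under 0.05, none fell, and 23 were not called. Of all genes tested, 10.8% were called higher and 11.1% were called lower. The median log2 fold change of the members was 0.38, or 1.303-fold, against -0.02 over all genes tested. The fitted change was above 0 for 79 members, and 3 members exceeded 1.5-fold. The count of members called was 34 without control 1 and 33 without control 2, where the share of all genes called higher was also lower, 6.25% and 6.78%. It was 71 without control 3, where 8.33% of all genes were called higher.

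**Figure D1:**
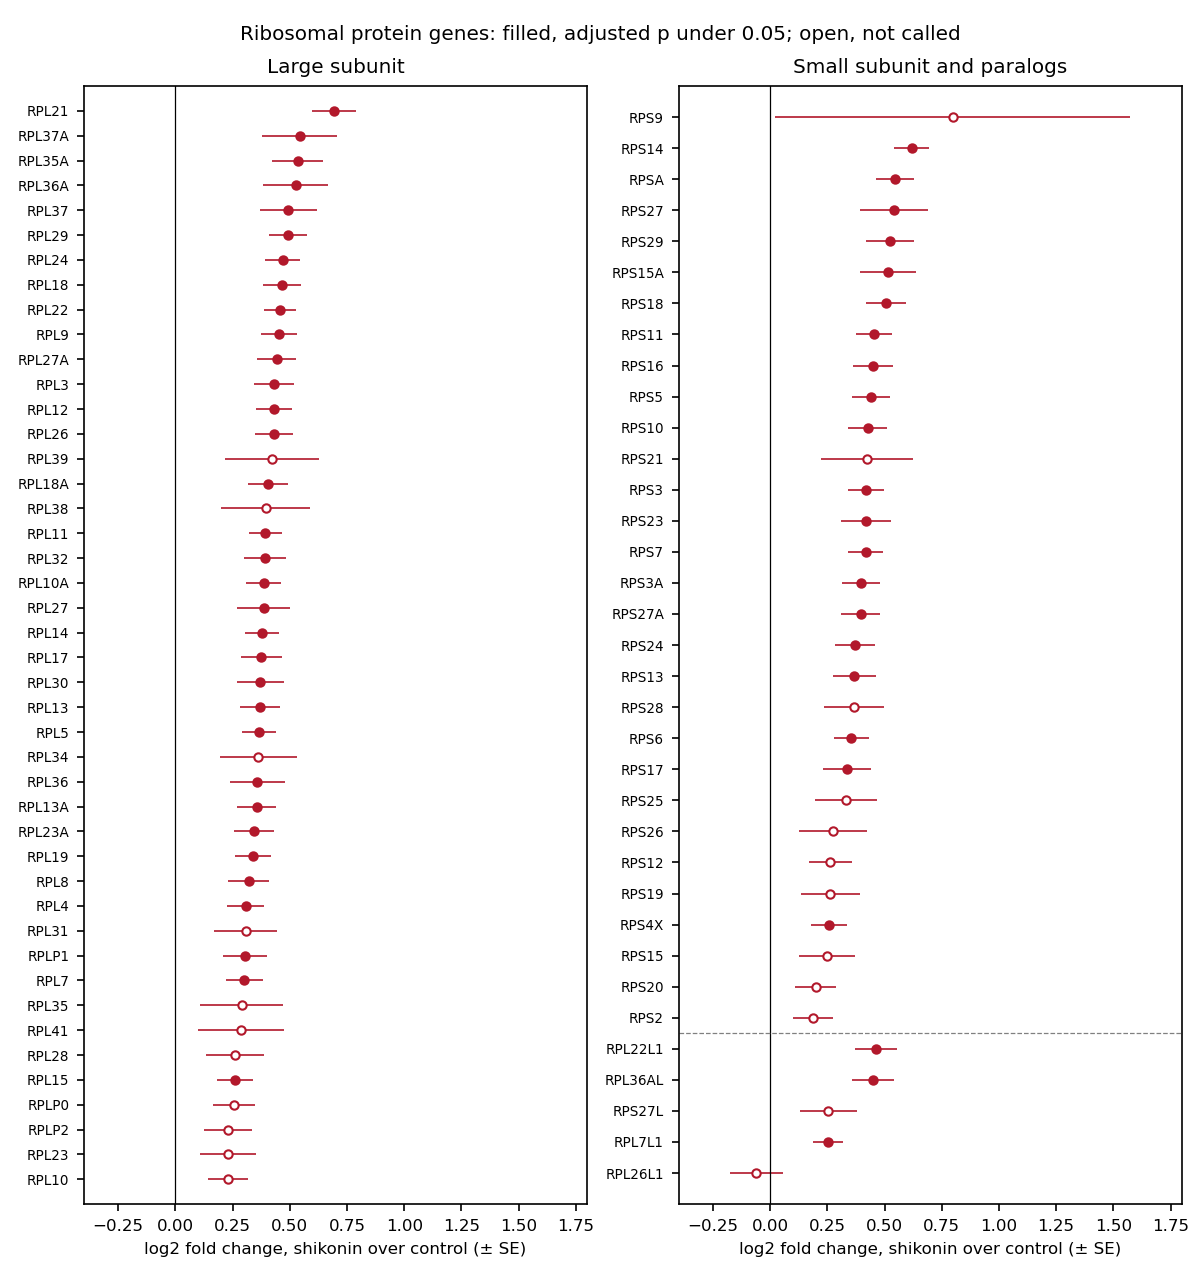
Log2 fold change of shikonin over control (x axis, with its standard error) for the 44 large subunit genes, the small subunit genes reported here and, under the dashed line, the 5 paralogs. Filled points passed an adjusted p of 0.05 in edgeR's test, and every point shown except RPL26L1 (-0.06) lies right of 0.

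The members together took 4.50%, 4.47% and 4.83% of the counts in controls 1, 2 and 3. In shikonin 1, 2 and 3 they took 5.48%, 5.92% and 5.50%. The share was thus above every control in every shikonin library, with means of 4.60% ± 0.202 (SD, n = 3) and 5.63% ± 0.247 (SD, n = 3) and a ratio of 1.22. Shikonin 2 was the highest library for 56 of 80 members, and control 2 was the lowest for 35.

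For 55 members the lowest shikonin library lay above the highest control, against 18.1% of all genes tested, and for none was the highest shikonin library below the lowest control, against 20.3%. Controls 1 and 2 both lay below every shikonin library in 78 of 80 members. Control 3 did not: it lay above the lowest shikonin library in 24 members and above all 3 shikonin libraries in 8.

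The start windows of members on which the results turn are shown because the tract is a sequence feature of most of these genes that the choice by symbol did not use. Each window runs 5′ to 3′ over 30 bases of the RefSeq promoter table (GRCh38.p14). The listed start of the transcript is base 16. The window therefore holds 15 bases upstream of that start and the first 15 bases of the transcript's first exon. Capitals mark the longest run of C and T that begins with C within 5 bases of the start and has at least 5 bases. Further C and T directly upstream of that C, as in RPL21 and RPL36AL, are not marked.
RPS14 (chr5:150449725-150449754, minus strand): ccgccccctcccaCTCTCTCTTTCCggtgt
RPSA (chr3:39406705-39406734, plus strand): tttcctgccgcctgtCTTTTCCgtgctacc
RPL21 (chr13:27251543-27251572, plus strand): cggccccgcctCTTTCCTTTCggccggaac
RPL22 (chr1:6199581-6199610, minus strand): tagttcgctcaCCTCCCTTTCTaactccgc
RPL22L1 (chr3:170870181-170870210, minus strand): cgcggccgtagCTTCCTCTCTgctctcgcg
RPL36A (chrX:101390996-101391025, plus strand): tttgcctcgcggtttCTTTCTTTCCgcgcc
RPL36AL (chr14:49620612-49620641, minus strand): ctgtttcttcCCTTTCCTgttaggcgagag
RPS27 (chr1:153990747-153990776, plus strand): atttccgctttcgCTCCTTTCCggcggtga
RPS27L (chr15:63157463-63157492, minus strand): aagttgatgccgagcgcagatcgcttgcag
RPL7L1 (chr6:42879601-42879630, plus strand): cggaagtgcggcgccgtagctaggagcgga

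RPS27L and RPL7L1 had no such run, whereas the windows of RPL22L1 and RPL36AL, also paralogs, had one. A RefSeq start was matched for 65 members and for 10422 of the genes tested. The share of members with a run depended on how a run was defined. With at least 8 bases beginning within 10 bases of the start, 50 of 65 members (76.9%) had one, against 9.89% of all genes matched. The second definition, at least 5 bases within 5 bases of the start, was added after the windows had been seen, because the run of RPSA has 7 bases. It gave 54 of 65 members (83.1%) against 22.5% of all genes. The median fold change of members with and without a run was 0.40 and 0.37 on the log2 scale with the first definition, and 0.40 and 0.26 with the second. Members without a run numbered 15 and 11. RPL15 and RPL9 had a run by the first definition and none by the second, and the median of 0.26 was the value of RPL15 itself. The paralogs RPL26L1, RPS27L and RPL7L1 had no run by either definition. Over all genes matched, the medians with and without a run were 0.02 and -0.02 with the first definition and 0.01 and -0.02 with the second. The part of the run in the fold changes was not tested.

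Both definitions were also counted over starts within 100 bases of the canonical GENCODE start. This left 63 members and 9945 genes, of which 79.4% and 9.91% had a run by the first definition and 85.7% and 22.4% by the second. Motifs were counted over all 65 members and all 10422 genes with a matched start, in the full window of 300 bases around it. The window ran from 250 bases before the start to 50 after, and both strands were read. CCGGAAG, letters bound by ETS factors, stood in 35.4% of members and 19.5% of all genes. AAGATGG, letters bound by YY1, stood in 12.3% and 7.65%. The last 3 letters of CCGGAAG are the first 3 of AAGATGG, so that matches can overlap, and a match is a description of the sequence.

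Levels are given below in CPM, counts scaled to a common library total by edgeR's trimmed mean of M values, in controls 1, 2 and 3 and then in shikonin 1, 2 and 3. They compare a gene between libraries and not genes with each other. In the small subunit, RPS14, a platform protein whose loss in deletions of chromosome 5q is linked to anaemia, had the smallest p of all members. Its levels were 327, 319.8 and 349 CPM in the controls and 494, 544 and 489.8 CPM with shikonin. The groups were far apart relative to their spread (log2 fold change 0.62, SE 0.0764, edgeR adjusted p = 0.000109). RPSA, a protein near the messenger exit that is also known as a laminin receptor, had 882, 896 and 815 CPM in the controls and 1249, 1351 and 1181 CPM with shikonin. No control reached the shikonin libraries (log2 fold change 0.54, SE 0.083, edgeR adjusted p = 0.000497).

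RPS27, a zinc finger protein of the small subunit, had 40.3, 42.1 and 67.9 CPM in the controls and 68.0, 76.5 and 74.6 CPM with shikonin. Control 3 was just below shikonin 1, and the gene rose by 0.54 on the log2 scale (edgeR adjusted p = 0.0174), or 0.82 without control 3. RPS27 was not called without control 1, control 2 or shikonin 2 (edgeR adjusted p = 0.0962, 0.0884 and 0.0668) or with DESeq2 (adjusted p = 0.107).

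The lowest changes of the small subunit were in RPS2, RPS20 and RPS15. RPS2, a protein at the entry of the messenger channel, had 2069, 2036 and 2147 CPM in the controls and 2535, 2438 and 2139.5 CPM with shikonin, so that shikonin 3 lay within the controls (log2 fold change 0.19, edgeR adjusted p = 0.148). RPS20, a head protein, had 651, 642 and 779 CPM against 778, 838 and 763 CPM (0.20, edgeR adjusted p = 0.127). RPS15, another head protein, had 342, 337 and 496 CPM against 466, 497 and 434 CPM (0.25, edgeR adjusted p = 0.162). In RPS20 and RPS15, control 3 stood among the shikonin libraries. Without control 3 their log2 fold changes were 0.29 and 0.46, with edgeR adjusted p = 0.0405 and 0.00355. With all libraries, DESeq2 called RPS2 and RPS20 (adjusted p = 0.0371 and 0.0454), and limma-voom did not (adjusted p = 0.125 and 0.0978).

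RPS9, a body protein, had the largest fitted change of all members, 0.80 on the log2 scale, and it was not called (SE 0.776, edgeR adjusted p = 0.503). Its levels of 3.32, 1.72 and 0 CPM in the controls and 6.28, 1.04 and 1.34 CPM with shikonin were the lowest of all members. The groups overlapped, so the value describes a few reads. By place in the subunit, 8 of 14 head genes, 4 of 6 genes of the platform and messenger exit, and 7 of 9 body genes rose. The share over all genes tested was 10.8%. Without control 3 the numbers were 14, 6 and 6, where 8.33% of all genes were called higher, so the order of the places depended on that library.

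In the large subunit, RPL21 rose the most, from 89.9, 84.1 and 72.9 CPM to 115, 142 and 142 CPM (log2 fold change 0.69, SE 0.0961, edgeR adjusted p = 0.000255). The groups did not overlap, but this value is uncertain, since a near-identical copy took more reads than the gene. The row of the pseudogene RPL21P16 held 5369, 5808 and 5953 counts in the controls and 7504, 6981 and 7198 with shikonin (log2 fold change 0.34, edgeR adjusted p = 0.00383). When the counts of all pseudogene rows named for a member were added to it, an alternative chosen after the data were seen, RPL21 rose by 0.43 (edgeR adjusted p = 0.00111). The count of members called was again 57. Pseudogene rows held over 10% of the member's own counts for 2 members, RPL21 and RPS9, and under 1% for 72.

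RPL37A, RPL35A and RPL36A followed RPL21. RPL37A, a short zinc finger protein, had 105, 123 and 196 CPM in the controls and 183, 226 and 210.1 CPM with shikonin (log2 fold change 0.54, edgeR adjusted p = 0.0273). RPL35A, a protein mutated in some patients with Diamond-Blackfan anaemia, had 141, 138 and 189 CPM against 205, 251 and 222 CPM (0.53, edgeR adjusted p = 0.00382). RPL36A had 49.8, 43.9 and 73.1 CPM against 71.9, 84.6 and 83.8 CPM (0.53, edgeR adjusted p = 0.016). In RPL37A and RPL36A control 3 was above shikonin 1, and in RPL35A the groups were apart. RPL37A and RPL36A were not called without control 1 (edgeR adjusted p = 0.135 and 0.0843), control 2 (0.119 and 0.081) or shikonin 2 (0.11 and 0.0651) or with DESeq2 (0.169 and 0.0896), and RPL37A also not without shikonin 3 (0.0545) or with library totals (0.0655).

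At the other end, RPL10, which lies near the catalytic centre, had 1655, 1585 and 1554 CPM in the controls and 1875, 2042 and 1708 CPM with shikonin. Its groups did not overlap, and it was not called (log2 fold change 0.23, edgeR adjusted p = 0.0725). DESeq2 called RPL10 (adjusted p = 0.0093), and limma-voom did not (adjusted p = 0.0578). RPL23, one of the proteins that bind MDM2, had 276, 272 and 405 CPM against 348, 394 and 377 CPM (0.23, edgeR adjusted p = 0.199). For RPL23 control 3 was the highest of all 6 libraries, and without it the change was 0.44 (edgeR adjusted p = 0.00376).

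RPL5 and RPL11 form with 5S ribosomal RNA the particle that binds MDM2, the ubiquitin ligase of p53, when ribosome assembly is disturbed. RPL5 had 513, 514 and 502 CPM in the controls and 635, 645 and 690.4 CPM with shikonin (log2 fold change 0.37, edgeR adjusted p = 0.0032). RPL11 had 242, 267 and 252 CPM against 323, 336 and 339 CPM (0.39, edgeR adjusted p = 0.00172). In both genes the controls lay close together and all shikonin libraries were above them.

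The P-stalk, which recruits the elongation factors, is built from RPLP0, RPLP1 and RPLP2 on a base that includes RPL12. RPL12 rose, from 697, 683 and 643 CPM to 899, 969 and 855 CPM (log2 fold change 0.43, edgeR adjusted p = 0.00189). RPLP1 also rose, from 1531, 1463 and 1746 CPM to 1982, 2110.0 and 1756 CPM (0.30, edgeR adjusted p = 0.0348). Shikonin 3 of RPLP1 was only just above control 3, and its call was lost without control 1, control 2, shikonin 1 or shikonin 2 (edgeR adjusted p = 0.148, 0.168, 0.0949 and 0.138), with either offset, with library totals and with a replicate block (0.0807). RPLP0 had 2611, 2433 and 2309.6 CPM against 2953, 3188 and 2641 CPM, with no overlap and no call (0.26, edgeR adjusted p = 0.0629). DESeq2 and limma-voom called RPLP0 (adjusted p = 0.0064 and 0.0497). RPLP2 had 509.5, 514 and 675 CPM against 699.5, 685 and 609 CPM, with control 3 above shikonin 3 (0.23, edgeR adjusted p = 0.133). Among the other groups of the large subunit, 6 of 9 genes at the exit tunnel and 3 of 4 genes of the peptidyl transferase core and L1 stalk rose. The share over all genes tested was 10.8%. Without control 3 the numbers were 8 and 3, where 8.33% of all genes were called higher.

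**Figure D2:**
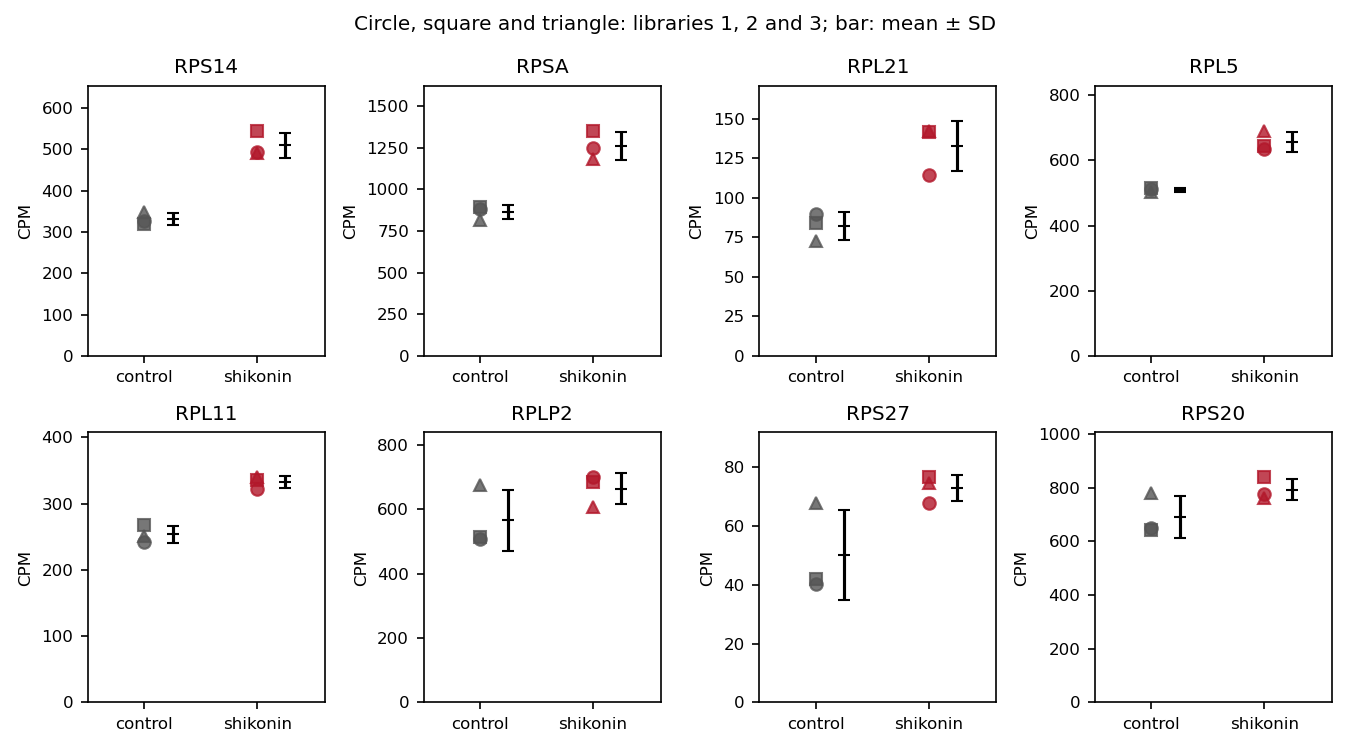
Levels (y axis, CPM from 0) of 8 members in the control libraries (grey) and the libraries labelled shikonin (red), with circle, square and triangle for libraries 1, 2 and 3 and the mean ± SD (n = 3) beside them. In RPS14, RPSA, RPL21, RPL5 and RPL11 the groups are apart, whereas control 3 of RPLP2 (675 CPM) and of RPS20 (779 CPM) lies among the shikonin libraries.

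The subunits were set side by side without a test. In the large subunit 33 of 44 genes rose, with a median log2 fold change of 0.38, and in the small subunit 21 of 31 genes rose, with a median of 0.40. The share over all genes tested was 10.8%. Without control 1 the counts of large and small subunit genes that rose were 18 and 14, and without control 2 they were 18 and 13. The share of all genes called higher was also lower in these runs, 6.25% and 6.78%. The large subunit took 2.83% ± 0.104 of the counts in the controls and 3.46% ± 0.158 with shikonin (SD, n = 3). The small subunit took 1.73% ± 0.0962 and 2.13% ± 0.0914 (SD, n = 3). The ratio of large to small subunit counts was 1.64 ± 0.0303 in the controls and 1.63 ± 0.022 with shikonin (SD, n = 3), a difference smaller than the SD of either group.

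Within the controls, library 3 stood apart for members with a short coding sequence. The members were divided at 450 bases of coding sequence, a limit chosen after the values were seen, which gave 40 genes on each side. The 40 shorter members took 1.15%, 1.14% and 1.504% of the counts in controls 1, 2 and 3 and 1.45%, 1.63% and 1.52% in shikonin 1, 2 and 3. Control 3 was thus above shikonin 1. The 40 longer members took 3.35%, 3.33% and 3.33% in the controls and 4.03%, 4.29% and 3.98% with shikonin. Here the controls lay close together and all shikonin libraries were higher.

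**Figure D3:**
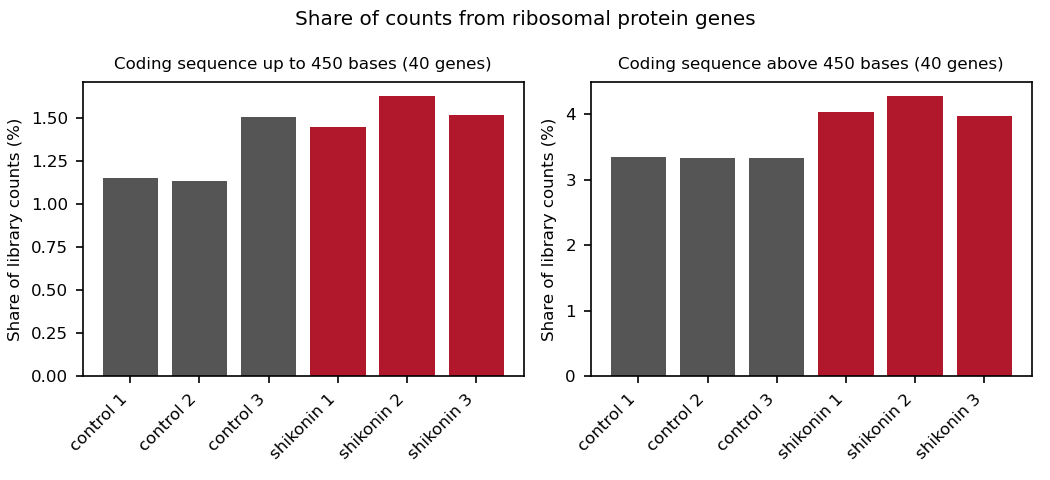
Share of each library's counts (y axis, percent from 0) taken by the 40 members with a coding sequence of up to 450 bases and the 40 members with a longer one, in controls (grey) and libraries labelled shikonin (red). For the shorter members control 3 (1.504%) is level with shikonin 3 (1.52%), and for the longer members every control is at or below 3.35% and every shikonin library at or above 3.98%.

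Of the shorter members 21 of 40 rose, and of the longer members 36 of 40, against 10.8% of all genes tested. The groups did not overlap in 17 of the shorter and 38 of the longer members, against 18.1% of all genes tested. The medians of the fold change were nearly equal, 0.37 and 0.39 on the log2 scale. Without control 3, 38 shorter and 33 longer members rose, with medians of 0.54 and 0.39, where 8.33% of all genes were called higher. Without control 1 the numbers were 9 and 25, without control 2 they were 8 and 25, and without shikonin 2 they were 12 and 29. Of all genes, 6.25% were called higher without control 1, 6.78% without control 2, and 943 of 13762 without shikonin 2. Other genes with a coding sequence of at most 450 bases numbered 830, of which 138 rose, with a median of 0.10.

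The excess of control 3 over the mean of controls 1 and 2 had a median of 0.46 (log2 CPM) in the shorter members and -0.01 in the longer ones. It was 0.75 in the 10 members with up to 300 bases, against 0.16 in 279 other genes of that length. Over the 80 members, the Spearman correlation of coding length with this excess was -0.78, and over 12919 other genes it was -0.17. With the log2 fold change, coding length correlated at -0.13 over the members and -0.24 over the other genes. Without control 3 the value for the members was -0.70. The points share their libraries and genes are not independent replicates. The part of length and of control 3 in the fold changes was not tested beyond these values. An offset for coding length and GC content, chosen after the data were seen, gave 55 members called and a median of 0.30, where 13.7% of all genes were called higher. The 57 called members shared 53 with these.

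**Figure D4:**
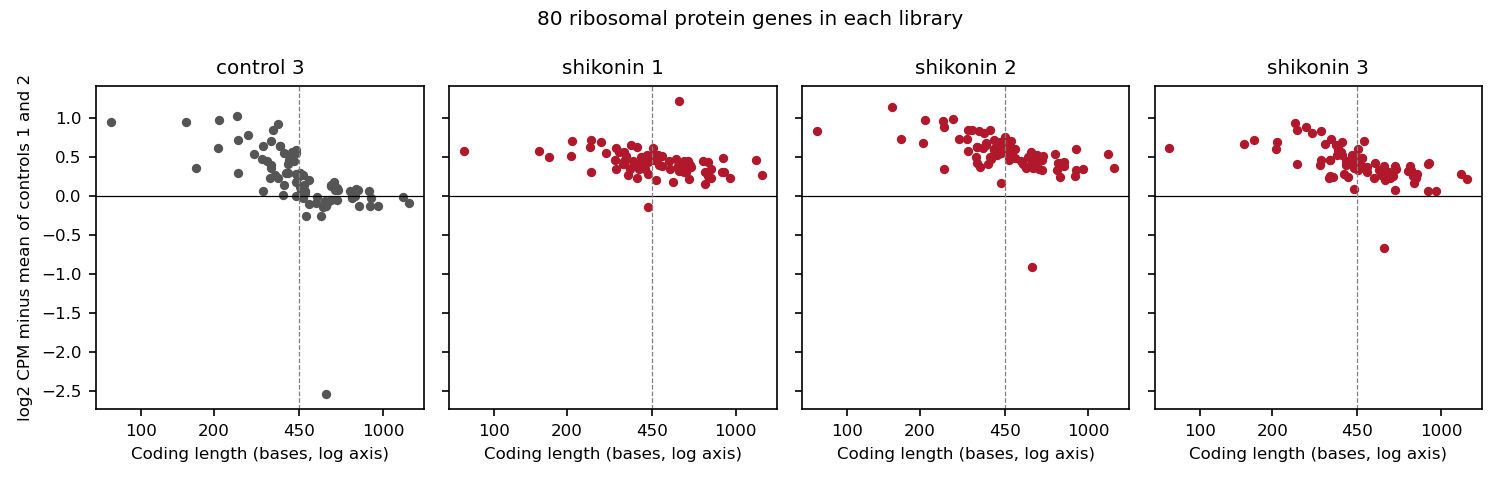
Level of each of the 80 members in control 3 and in the 3 libraries labelled shikonin, as log2(CPM + 0.5) minus the mean of controls 1 and 2 (y axis), against coding length (x axis, bases, log scale, dashed line at 450). In control 3 the shorter members lie above 0 (median 0.46) and the longer ones around 0 (median -0.01), and the point that lies far from the rest in each panel is RPS9.

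The 4 members with the largest excess in control 3 were RPS21 (1.02 in log2 CPM), RPL38 (0.97), RPL39 (0.95) and RPL41 (0.95), which all have up to 300 coding bases. RPL41, one of the shortest proteins known, had 168, 184 and 341 CPM in the controls and 262, 314 and 271 CPM with shikonin. RPS21 had 56.3, 57.5 and 116 CPM against 88.0, 111 and 109 CPM. RPL38 had 41.8, 41.0 and 81.8 CPM against 67.9, 81.7 and 67.0 CPM. In these 3 genes control 3 was the highest library. RPL39, a protein in the wall of the exit tunnel, had 62.3, 55.5 and 114 CPM against 87.7, 129.8 and 93.6 CPM. In RPL39 control 3 was below shikonin 2 alone. RPL41, RPS21, RPL38 and RPL39 were not called (edgeR adjusted p = 0.296, 0.148, 0.164 and 0.16). Without control 3 their log2 fold changes were 0.68, 0.85, 0.80 and 0.81, each called by edgeR. These 4 genes were chosen after their values were seen.

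Some ribosomal proteins have a paralog that can take their place. Of 8 pairs with both genes in the table, 5 had both genes kept, and they were compared by the log2 ratio of paralog to canonical gene within each library, which does not depend on scaling. With 3 libraries against 3 an exact two-sided permutation test cannot go below p = 0.1, so no pair could pass the threshold. RPL26L1 was the member with the lowest fitted change (-0.06, edgeR adjusted p = 0.754), with 23.7, 22.0 and 27.8 CPM in the controls and 20.6, 25.7 and 24.2 CPM with shikonin. RPL26, a protein at the exit tunnel that also binds the p53 message, rose from 587, 562 and 574 CPM to 699, 840.3 and 783 CPM (0.43, edgeR adjusted p = 0.00241).

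The log2 ratio of RPL26L1 to RPL26 was -4.63, -4.67 and -4.37 in the controls and -5.08, -5.03 and -5.01 with shikonin. It was lower in every shikonin library than in every control, with a difference of -0.48 (exact permutation p = 0.1, adjusted over 5 pairs 0.5). In counts, there were 4.27 RPL26L1 per 100 RPL26 in the controls and 3.04 per 100 with shikonin.

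RPS27L, a paralog of RPS27 that is a target of p53, had 15.1, 12.8 and 17.2 CPM in the controls and 17.3, 17.8 and 18.6 CPM with shikonin. Control 3 was just below shikonin 1, and the gene was not called (log2 fold change 0.25, edgeR adjusted p = 0.163). Its log2 ratio to RPS27, given here for each library, was -1.42, -1.72 and -1.98 in the controls and -1.97, -2.10 and -2.00 with shikonin. The groups overlapped through control 3, and the difference was -0.32 (exact permutation p = 0.2).

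RPL22 and RPL22L1, both RNA-binding proteins, rose by about the same amount. RPL22 had 163, 166 and 166 CPM in the controls and 218, 219 and 243 CPM with shikonin (log2 fold change 0.46, edgeR adjusted p = 0.000547). RPL22L1 had 110.3, 108 and 128 CPM against 139, 167 and 173 CPM (0.46, edgeR adjusted p = 0.00279). Both genes separated the groups, and their ratio differed by 0.01 (exact permutation p = 1).

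RPL7 and RPL7L1 also rose. RPL7 had 735, 738 and 719.8 CPM in the controls and 820.3, 925 and 957 CPM with shikonin (log2 fold change 0.30, edgeR adjusted p = 0.0162). RPL7L1, a factor of large subunit assembly, had 201, 195 and 198 CPM against 236, 235 and 237 CPM (0.25, edgeR adjusted p = 0.0142). The levels of RPL7L1 scarcely varied within a group, and the ratio differed by -0.05 (exact permutation p = 0.6). RPL7 was not called without control 1, 2 or 3 or shikonin 2 (edgeR adjusted p = 0.0721, 0.0627, 0.0545 and 0.0558) or with the transcript length offset (0.0549), and RPL7L1 was not called without control 1 or control 2 (0.0583 and 0.077). RPL36AL, paralog of RPL36A, rose from 24.5, 25.1 and 25.9 CPM to 31.5, 37.3 and 34.2 CPM (0.45, edgeR adjusted p = 0.00367), and its ratio to RPL36A differed by -0.11 (exact permutation p = 0.7).

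**Figure D5:**
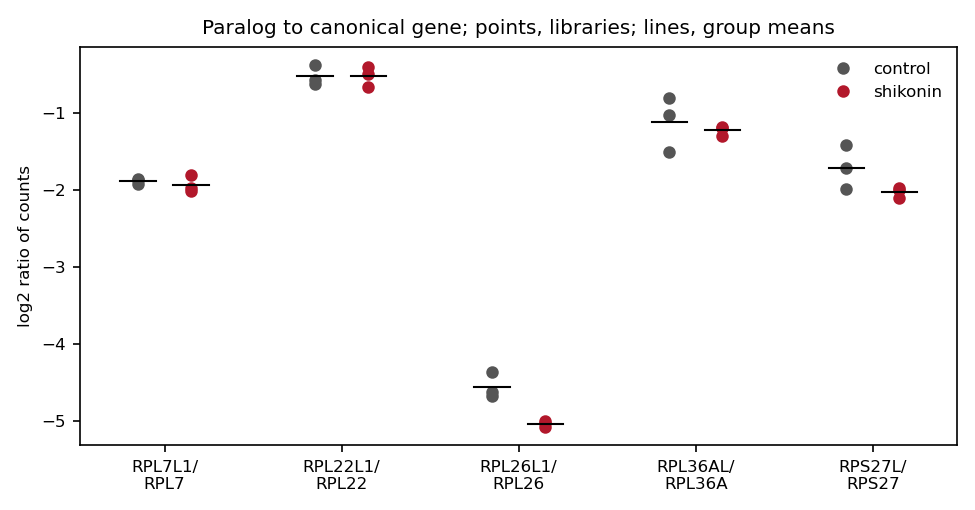
Log2 ratio of counts of the paralog to the canonical gene (y axis) for 5 pairs, with 1 point per library in controls (grey) and libraries labelled shikonin (red) and lines at the group means. Only for RPL26L1 over RPL26 do the 3 red points (-5.08 to -5.01) all lie below the 3 grey points (-4.67 to -4.37).

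Some ribosomal proteins are made as fusions with ubiquitin or a ubiquitin-like protein, among them RPS27A, a member by its symbol, and FAU, which is not. RPS27A had 566, 559 and 551 CPM in the controls and 647, 774 and 786 CPM with shikonin, and it rose (log2 fold change 0.40, edgeR adjusted p = 0.00478). FAU, which yields the small subunit protein eS30, had 101, 106 and 148 CPM against 169.8, 185 and 147 CPM (0.50, edgeR adjusted p = 0.0103). In FAU, control 3 was level with shikonin 3, whereas RPS27A separated the groups. FAU was not called without control 1, control 2 or shikonin 2 (edgeR adjusted p = 0.0676, 0.0598 and 0.0559) or with DESeq2 (0.058).

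The other messages with a TOP motif that were listed encode mostly translation factors. Of 19, 11 rose and none fell, with a median log2 fold change of 0.28. Of all genes tested, 10.8% were called higher and 11.1% lower. Among the TOP messages that rose were EEF1B2 (0.45), EEF1G (0.37), EIF3E (0.37) and EIF3H (0.32), subunits of the elongation factor eEF1 and of the initiation factor eIF3. Without control 1, 2 or 3 the number that rose was 5, 4 and 5, where 6.25%, 6.78% and 8.33% of all genes were called higher. Without shikonin 1 or 2 the number was 7 and 4, where all genes called higher numbered 1036 and 943. EEF1G was not called without control 1 (edgeR adjusted p = 0.0514), nor EIF3E without control 3 (0.0517). Of 13 noncoding hosts of small nucleolar RNAs with such a motif, SNHG32 alone was found under its symbol (0.31, edgeR adjusted p = 0.0127), and it was not called without control 2 or without control 3.

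Among 14 regulators of TOP messages, 4 rose and 2 fell, with a median of 0.08. With 10.8% of all genes called higher and 11.1% called lower, the number that fell is near the share over all genes. The number that rose was 2 without control 1, 2 or 3 or shikonin 2, and the number that fell was 4 without shikonin 3. MLST8, a subunit of both mTOR complexes, rose by 0.48 and EIF4EBP1, a repressor of cap-dependent translation, by 0.39. EIF4EBP2, its close relative, fell by 0.54 on the log2 scale (edgeR adjusted p = 0.000148) and MTOR, the kinase itself, fell by 0.34 (edgeR adjusted p = 0.00485). Of 8 chaperones of ribosomal proteins and nascent chains, 4 rose, which were NACA (0.43), BCCIP (0.48), BTF3 (0.30) and PDCD2L (0.35), and none fell. PDCD2L was called without shikonin 3 but not without any other library (edgeR adjusted p = 0.0576 to 0.0945).

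Of 5 partners of the 5S particle, 3 rose: RPF2 (0.50) and RRS1 (0.35), which load the particle on the large subunit, and GTF3A (0.30), the transcription factor of the 5S genes. MDM2 (-0.02, edgeR adjusted p = 0.878) and MDM4 (0.02, edgeR adjusted p = 0.908) were not called. Of 14 genes of ribosome quality control, 3 rose (21.4%, against 10.8% of all genes), too few to read as a result about the list. They were PELO (0.49), EDF1 (0.33) and ABCE1 (0.28), which rescue or sense stalled ribosomes. Of the 5S partners 1 rose without control 2, and of the quality control genes 1 rose without control 1 and 5 without shikonin 3. RRS1 was not called without control 1, control 2, shikonin 1 or shikonin 2 (edgeR adjusted p = 0.0771 to 0.123), GTF3A not without control 2 (0.0605), EDF1 not without control 1 (0.058) and ABCE1 not without control 1, 2 or 3 (0.0533 to 0.11). Of 77 mitochondrial ribosomal protein genes tested, 27 rose and none fell, with a median of 0.25. MRPL12 (0.53), MRPS12 (0.46), MRPL58 (0.45) and MRPS18B (0.40) had the smallest p. The number of mitochondrial genes that rose was 11 without control 1, 11 without control 2, 17 without shikonin 1, 12 without shikonin 2 and 40 without shikonin 3. All genes called higher in these runs numbered 861, 932, 1036, 943 and 2074.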

How the data were processed

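Messenger RNA from 3 control and 3 shikonin libraries of HCT116 cells was sequenced. The values the authors deposited are estimated counts for each gene and library, not normalised. According to the methods of the study, reads were aligned to hg38 with TopHat2 and counted with featureCounts; the submitters' processing notes name GRCm38 and mm10, although the gene identifiers are human. The counts were rounded, since the plan had assumed whole numbers. GENCODE release 44 (GRCh38) gave annotation for 34979 of 35106 genes, and RefSeq gave start windows.

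In R 4.3.3, edgeR 4.0.16 (filterByExpr, trimmed mean of M values, glmQLFit, glmQLFTest) compared the groups over 13548 genes without covariates. P-values were adjusted by Benjamini-Hochberg, with calls at an adjusted p under 0.05. Standard errors were the absolute log2 fold change over the square root of F. Paralog ratios (0.5 counts added) had exact permutation tests. The procedure was tested on simulated data, where it missed many changes as small as the median of the members and made more false calls than the nominal share, so that a missing call is weak evidence and some calls may be false.

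Members and lists were chosen with earlier results of these data known, and lists came from general knowledge. Values in every library were given for the 8 members with the largest and the 8 with the smallest change, paralog pairs, 5S and P-stalk members and fused proteins; related lists name up to 4 genes with the smallest p. RPL41, RPS21, RPL38 and RPL39 were added. The single values of 2 genes that this rule covers are not reported here. The alternatives comprised limma-voom (limma 3.58.1), DESeq2 1.42.0, other scalings and filters, an offset in transcript length and GC (spline with 5 degrees of freedom), a replicate block and leaving out each library. The offset for coding length, the sum with pseudogenes, the division at 450 bases and the second definition of a pyrimidine run were chosen after values were seen. The numbers of the libraries did not pair them: same-numbered deviations correlated at -0.04, -0.02 and -0.01.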

Additional observations from a re-analysis of the deposited data

How the results depend on the processing

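No called member changed direction under any alternative run, and no member was called lower. The number of members called higher was 56 with DESeq2, 60 with limma-voom, 58 with median-of-ratios scaling, 49 with library totals alone, 47 with the length and GC offset and 73 of 83 without a filter. A replicate block gave 56 and, with the length and GC offset, 47. In the main edgeR fit 57 members and 1460 of 13548 genes were called higher. With the length and GC offset alone these were 47 members and 1680 of 13515 genes. The number of all genes called higher was also larger with DESeq2, median-of-ratios scaling, no filter and the offset with the block. It was smaller with limma-voom, library totals and the block alone. Without a filter more genes were tested. For the paralog ratios the block gave exact permutation p-values of 0.25 to 1.

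Without a filter 37 of the shorter members rose. With the length and GC offset the small subunit median was 0.27, no TOP snoRNA host, 7 TOP regulators and 5 quality control genes rose, and 4 TOP regulators and 2 mitochondrial ribosomal protein genes fell. With that offset and the replicate block together the small subunit median was 0.27, the hosts that rose numbered 0, the 5S partners 1, the quality control genes 5 and the mitochondrial genes 14, with 1 that fell. The offset for coding length gave 6 quality control genes that rose and 1 mitochondrial gene that fell. Library totals gave 15 mitochondrial genes that rose. The cause was not tested.

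Leaving out each library in turn gave 861 to 2074 genes higher and 776 to 1901 lower, 33 to 71 members, 18 to 40 large and 13 to 28 small subunit genes higher, and 8 to 38 shorter and 25 to 39 longer members. Medians were 0.33 to 0.45 for members, 0.32 to 0.43 for the large and 0.34 to 0.47 for the small subunit. Other TOP messages gave 4 to 13, hosts 0 to 1, TOP regulators 2 to 5 higher and 2 to 4 lower, chaperones 3 to 5, 5S partners 1 to 3, quality control 1 to 5 and mitochondrial genes 11 to 40. The difference in share was 0.889 to 1.15 percentage points. The paralog differences were -0.11 to -0.0040 for RPL7L1, -0.0541 to 0.0784 for RPL22L1, -0.54 to -0.39 for RPL26L1, -0.307 to 0.0416 for RPL36AL and -0.46 to -0.17 for RPS27L. The sign turned for RPL22L1 without control 1 (-0.02), control 2 (-0.04), shikonin 2 (-0.0541) or shikonin 3 (-0.00468), and for RPL36AL without control 2 (0.0416).

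Fold changes this small rest on 3 libraries a group, and fractional counts leave genes with near-identical copies uncertain.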

Other observations

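Of 1135 pseudogene rows of ribosomal proteins, 343 had counts and 24 were tested. RPL21P16 rose and none fell. Together these rows took 0.0469% ± 0.0053 of the counts in the controls and 0.0518% ± 0.00153 with shikonin (SD, n = 3). The readthrough RPL17-C18orf32 had 152, 155 and 118 counts in the controls and 85.3, 111 and 106 with shikonin (log2 fold change -0.49, edgeR adjusted p = 0.0937), while RPL17 itself rose by 0.37 (edgeR adjusted p = 0.00861). The readthrough RPS10-NUDT3 was at -0.02 (edgeR adjusted p = 0.924), while RPS10 rose by 0.43 (edgeR adjusted p = 0.00334).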
